A study of Mus musculus with 9 samples.

Results

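Leukemic cells, read here as propagated in culture, were compared with leukemic progenitors from marrow. The comparison takes in 6 of the 9 Affymetrix mouse arrays of the study: 3 of L-GMP-derived cells and 3 of L-GMP, chosen by their titles and sources and read across all genes. L-GMP are cells with features of granulocyte-macrophage progenitors (GMP), sorted from the bone marrow of mice with a leukemia driven by the fusion gene MLL-AF9. The L-GMP-derived arrays are titled AKLG-1, AKLG-2 and AKLG-3, give L-GMP as their source, and were read as the cells grown from L-GMP in vitro because the study's design names such cells and no other sample could be them. The culture medium, its growth factors and the time in culture are not stated in the sources used here, nor are the strain and age of the mice or the vector that carried the fusion. The other 3 arrays, of normal GMP from bone marrow, entered the floor, the filter on dim probe sets and the shared estimate of the spread but no fold change, and give the level in normal progenitors.

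MLL-AF9 joins the amino-terminal part of the chromatin regulator encoded by Kmt2a to the product of Mllt3, and keeps genes such as those of the HoxA cluster active in cells that would normally silence them as they mature. Normal GMP divide in the marrow under the control of cytokines and adhesion to stromal cells, and give rise to neutrophils, monocytes and other granulocytes. Cells in culture are outside the marrow, and which cytokines, lipids, amino acids or supporting cells they met here is not stated.

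About 50000 sorted cells and 50 ng of total RNA went into each array per the labels, which leave unsaid if the 3 RNAs of a group had different mice or cultures as their source. All p-values therefore rest on the spread among these arrays, possibly a technical one, and the number of arrays limits their precision. Each array gave 22690 probe set signals on a linear scale of fluorescence, of which 14578, standing for 8965 named genes, were bright enough to test. Signals below 62.4 were set to that floor before log2 was taken, and a fold is the ratio of the geometric means of the floored signals, which can differ from the ratio of arithmetic means of the values printed. Where any array of the lower group was at the floor, this ratio is a lower bound of that without a floor, written "at least". L-GMP-derived replicate 1 stood apart: across tested probe sets its correlation was 0.958 with replicate 2 and 0.964 with replicate 3, and theirs with each other 0.989. It was at least 2-fold away from them at 599 and 492 probe sets, and they from each other at 35. Spiked-in control transcripts deviated by 0.26 (log2) from their 9-array mean on replicate 1, and by -0.06 and -0.0034 on replicates 2 and 3. On the L-GMP and normal GMP arrays the deviation ran from -0.16 (L-GMP replicate 3) to 0.18 (normal GMP replicate 3). The L-GMP arrays did carry RNA of 3 defining GMP antigens, Kit (614, 587 and 771), Cd34 (189, 294 and 436) and Fcgr3 (811, 724 and 941), whereas on the L-GMP-derived arrays Cd34 was below the floor throughout. The probe sets of Kmt2a and Mllt3 cannot serve to check the fusion, since which part of each transcript they read is unknown.

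In the cultured cells 17 of 19 tested genes of sterol synthesis rose, 8 of 13 of fatty acid synthesis, 17 of 24 of the amino acid response, 12 of 18 tRNA synthetases, 21 of 27 of the Myc and ribosome biogenesis list and 14 of 21 of glycolysis and hypoxia. The progenitor antigens Kit and Cd34 fell, and so did 5 of 10 marker genes of eosinophils and mast cells, 9 of 19 of neutrophil granules, 7 of 16 of monocytes and 9 of 18 of adhesion. In all, 4354 of 14578 probe sets (29.9%) passed an adjusted p of 0.05 in limma. Of the 8965 tested genes 2754 (30.7%) passed it, 1489 of them (16.6%) higher and 1265 (14.1%) lower in L-GMP-derived cells. At least 2-fold changes numbered 344 in each direction (3.84% each), and the groups did not overlap at 41.1% of genes. Most genes named from the lists below were chosen among the called ones by the size of their change, which favours groups without overlap. Without L-GMP-derived replicate 1, 1906 genes rose (21.3%) and 1519 fell (16.9%), and 2580 of these were also called, with the same sign, with all arrays. In 17 of the 638 genes with at least 2 called probe sets, probe sets were called in opposite directions. The median log2 fold change over all tested genes was -0.0040, and the medians of chromosomes with at least 200 tested genes ran from -0.05 to 0.06.

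**Figure D1:**
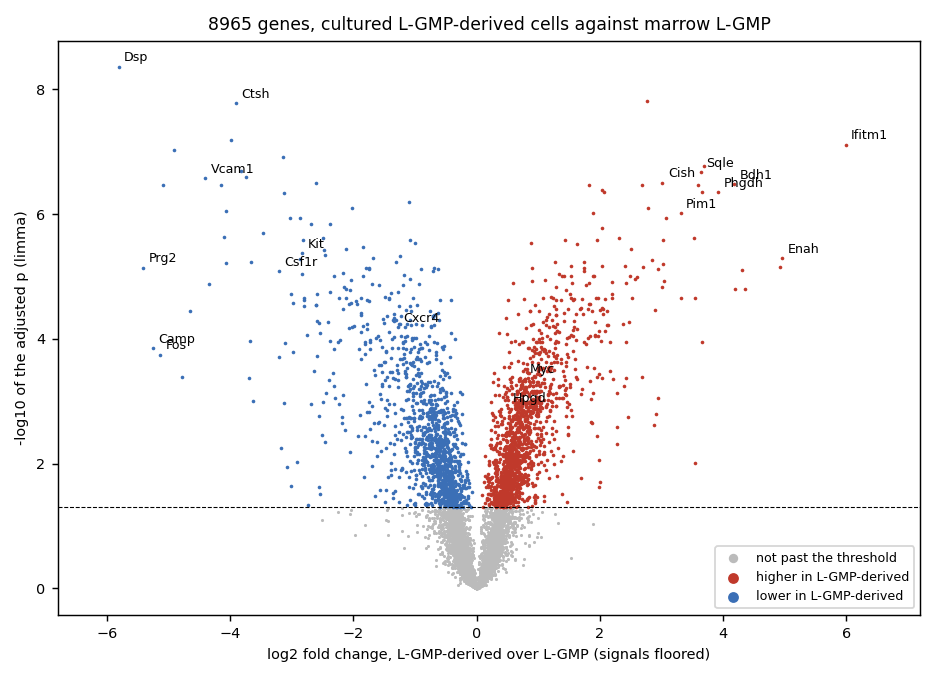
Each point is 1 of 8965 genes, with the log2 fold change of L-GMP-derived over L-GMP on the x axis and the -log10 of limma's adjusted p on the y axis, the dashed line marking 0.05. Red genes (1489) were higher and blue genes (1265) lower in L-GMP-derived cells, Ifitm1 lies farthest to the right at 5.98 and Dsp farthest to the left at -5.81.

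A measure of RNA integrity also differed between the groups. For beta-actin, the signal at the 3' end over that at the 5' end averaged 7.10 ± 0.140 in L-GMP-derived cells and 5.17 ± 0.355 in L-GMP (SD, n = 3 arrays each). The exact permutation p, two-sided, was 0.1, and 3 arrays against 3 cannot give a smaller one. The 3' to middle ratio was 3.01 ± 0.170 against 2.26 ± 0.291 (exact p = 0.1). For Gapdh the ratios were 7.21 ± 1.78 against 8.09 ± 3.05 (exact p = 0.7) and 1.86 ± 0.132 against 1.85 ± 0.0493 (exact p = 0.9). Its part in the results was not tested.

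Ifitm1, an interferon-induced transmembrane protein gene, rose most. Its signal was 3634, 5234 and 5337 on the L-GMP-derived arrays and 48.7, 102 and 58.8 on those of L-GMP, at least 63.3-fold higher (log2 fold change 5.98 ± 0.21 SE, adjusted p = 7.72e-08). All 3 cultured arrays lay far above the marrow arrays, and normal GMP averaged 1059.7. Enah, which encodes a regulator of actin filaments, read 996, 2889 and 2858 against 69.9, 32.7 and 27.8 (at least 31.1-fold). Replicate 1 was the lowest of the cultured arrays and still above every L-GMP array.

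Afp, F7 and Bdh1 were among the 15 genes that rose most. Afp (alpha-fetoprotein) read 1472, 3057 and 3262 in L-GMP-derived cells against 136, 18.5 and 12.3 (at least 30.3-fold, adjusted p = 7.09e-06). F7, the gene of coagulation factor VII, read 2835, 859 and 955 against 29.4, 51.8 and 69.5 (at least 20.5-fold), with replicate 1 the highest here. Bdh1, which encodes the mitochondrial enzyme that interconverts ketone bodies, read 814, 1327 and 1331 against 59.1, 34.1 and -14.4 (at least 18.1-fold, adjusted p = 3.36e-07). Replicate 1 was the lowest cultured array for Afp and Bdh1. The peptidyl-prolyl isomerase gene Ppic (at least 19.8-fold), the tubulin gene Tubb6 (at least 11.6-fold), Spats2 (12.9-fold) and the mitochondrial protein gene Chchd10 (12.1-fold) also rose. Ak4, a mitochondrial adenylate kinase gene, read 112, 1763 and 2059.7 against 65.9, 8.6 and 31.6. It was at least 11.7-fold higher with all arrays and at least 29.97-fold without replicate 1 (7.56 and 6.99 without replicate 2 or 3), which lay close to the marrow arrays, while normal GMP averaged 1421.

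Dsp, which encodes desmoplakin of cell-cell junctions, fell most. It read 51, 28.3 and 17.4 in L-GMP-derived cells and 3963, 3409 and 3186 in L-GMP, a fall of at least 56.1-fold (log2 fold change -5.81 ± 0.13 SE, adjusted p = 4.37e-09), so every cultured array lay below the floor. Penk (proenkephalin) went from 3328, 1451 and 2106 in L-GMP to 66.4, 30.9 and 19.2 (at least 34.0-fold). The choline dehydrogenase gene Chdh was 17.2-fold lower and Anxa1, which encodes the anti-inflammatory annexin A1, 16.7-fold. Satb1, a chromatin organiser gene, was at least 16.8-fold lower, and the C-type lectin gene Clec4a2 at least 30.1-fold. Of the genes named here and below, Trib3, Phgdh, Asns, Ak4, Chchd10, Hdc, Chdh, Hpgd, Aars, Acta2, Cad, Eprs, F2r, Fcgr2b, H2-Ab1, H2-D1, Hspe1, Ighm, Lipa, Mndal, Myb, Ndufv1, Odc1, S100a8, Socs3 and Atf4 are read by probe sets that can also bind related transcripts, which makes their signals uncertain. The same holds for near-identical genes such as Hspa1b and the Ifitm family.

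**Figure D2:**
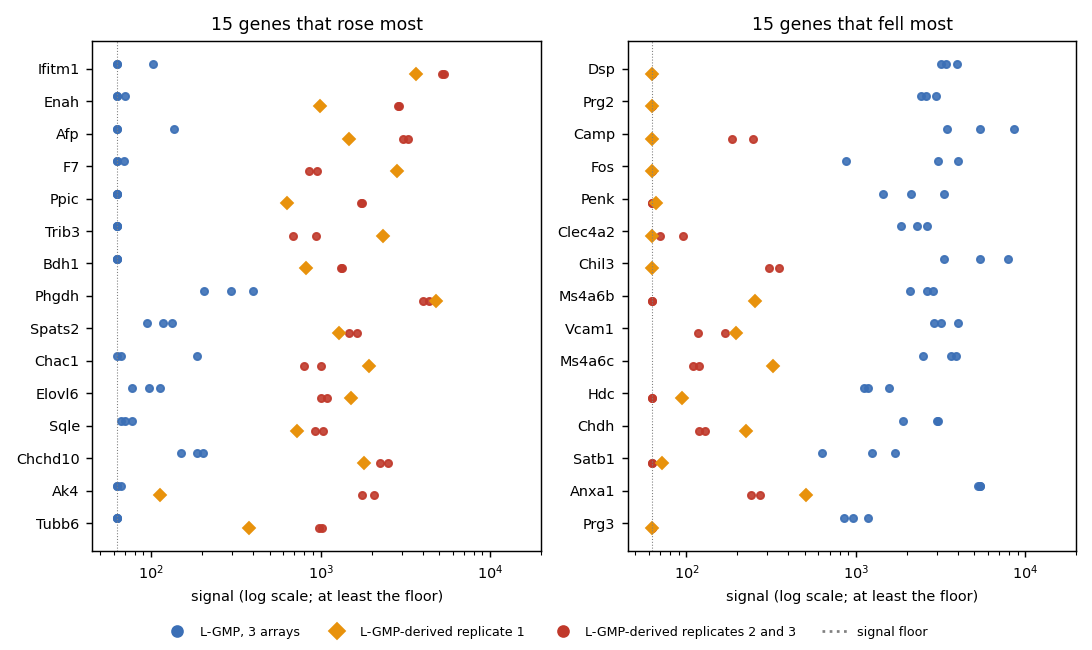
Signals (log scale, values below the floor of 62.4 drawn at it) of the 15 genes that rose most, left, and the 15 that fell most, right, with 1 point per array: L-GMP in blue, L-GMP-derived replicates 2 and 3 in red and replicate 1 as an orange diamond. The genes were chosen for groups without overlap, and replicate 1 lies apart from replicates 2 and 3 in Ak4 (112 against 1763 and 2059.7) and, at the other end, in Ms4a6b (255 against 40.4 and 21.9).

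Genes of lipid synthesis rose. Cells make sterols from acetyl-CoA through mevalonate and squalene, and the transcription factor SREBP switches these genes on when membrane sterol is low. Of 19 tested genes of sterol synthesis 17 rose and 0 fell, with a median log2 fold change of 1.58 against -0.0040 over all tested genes, and 17 rose without replicate 1. Sqle, the squalene epoxidase gene, read 722, 1039 and 932 in L-GMP-derived cells against 77.5, 69.8 and 66.6 in L-GMP, a rise of 12.5-fold (log2 fold change 3.64 ± 0.15 SE, adjusted p = 2.15e-07). Cyp51, which encodes the lanosterol demethylase, read 818, 973 and 978 against 142, 150.03 and 71.2 (8.01-fold). In both genes the lowest cultured array lay far above the highest marrow array.

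Other genes of the pathway rose with smaller folds. Hmgcs1, which encodes the enzyme that makes HMG-CoA, read 3234, 4307 and 5631 against 1228, 1134 and 802 (4.13-fold, adjusted p = 3.99e-05). Idi1, which encodes the isopentenyl diphosphate isomerase, was 5.54-fold higher, and Msmo1, a demethylase of the late pathway, 6.89-fold. The 2 tested members that did not pass were Mvd (551 ± 47.2 against 574 ± 44.7) and Ebp (adjusted p = 0.748 and 0.53), named here after their values were seen. Normal GMP averaged 149 for Sqle and 2219.6 for Hmgcs1.

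Fatty acid synthesis rose as well, in 8 of 13 tested genes with 0 lower (median 0.61), and in 10 without replicate 1. Elovl6, which encodes the elongase from palmitate to stearate, read 1516, 1007 and 1096 in L-GMP-derived cells against 76.6, 96.5 and 113 (12.6-fold, adjusted p = 4.49e-07). The desaturase genes Scd2 and Fads1 were 4.20-fold and at least 4.35-fold higher, Fasn, the fatty acid synthase gene, 2.71-fold (3128 ± 271 against 1152 ± 61.6), and Gpam, which starts glycerolipid synthesis, 1.58-fold. The groups did not overlap in these 5 genes, chosen among those called, which also holds for 41.1% of all tested genes.

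Amino acid response genes also rose. When amino acids run short or the endoplasmic reticulum is stressed, the transcription factor ATF4 raises transporters, amino acid enzymes and tRNA synthetases. Of 24 tested genes 17 rose and 0 fell (median 1.54). Without replicate 1, 17 rose and 2 fell (median 1.305). Trib3, a pseudokinase gene induced by ATF4, read 2331, 683 and 943 in L-GMP-derived cells and 2.01, 3.4 and 7.97 in L-GMP (at least 18.3-fold, adjusted p = 1.56e-05). Chac1, which encodes a glutathione-degrading enzyme, read 1932, 793 and 1002 against 185, 52.3 and 66 (at least 12.6-fold). In both, replicate 1 was the highest cultured array and replicates 2 and 3 still lay above all of L-GMP.

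Enzymes and transporters of this response differed less among the cultured arrays. Phgdh, which encodes the first enzyme of serine synthesis, read 4776, 4002 and 4380.4 against 205, 295 and 399 (15.1-fold, adjusted p = 4.49e-07), and normal GMP averaged 4214. Asns (asparagine synthetase) read 3916, 2802 and 3213 against 738, 325 and 362 (7.41-fold), and Slc7a5, a large neutral amino acid transporter gene, 903, 691 and 625 against 119, 116 and 156 (5.66-fold). No cultured value of the 3 genes fell within the marrow range. Nupr1, a stress-induced chromatin protein gene, read 663, 136 and 165 against 3.31, 5.87 and 4.34. It was at least 3.94-fold higher, and at least 2.40-fold without replicate 1. Atf4 itself was 1.29-fold higher (adjusted p = 0.000796) and Ddit3, its pro-apoptotic partner, read 457 ± 311 against 426 ± 72.5 (adjusted p = 0.886), both named after their values were seen.

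Of 18 cytosolic aminoacyl-tRNA synthetase genes, whose products load amino acids onto tRNA, 12 rose and 0 fell (median 0.85), and 12 rose without replicate 1. Aars read 2433, 1699.7 and 1729 against 754, 612 and 575 (2.997-fold, adjusted p = 5.09e-05). Tars was 2.96-fold higher, Eprs 2.53-fold, Gars 2.52-fold and Nars 2.07-fold, each without overlap between the groups. These were chosen among the called members, and 41.1% of all tested genes had no overlap.

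Promoters of these rising genes were searched, on both strands, for the ATF4 element TGATGNAA and for the sterol regulatory element TCACNCCAC in the 250 bases before the first start site that RefSeq lists (GRCm38.p6). Of the tested genes 7259 had a promoter in the table. The ATF4 element was found in 2.01% of these, in 5 of 22 genes of the amino acid response (3 of them higher, and Atf3 and Herpud1, which did not pass the test) and in 3 of 11 synthetase genes, all higher. The sterol element was found in 0.951% of tested genes, in 1 of 15 genes of sterol synthesis and in 0 of 10 of fatty acid synthesis. The E-box CACGTG, searched for Myc, was found in 8.11% of tested genes, in 1 of 20 genes of the Myc and ribosome biogenesis list, and in 3 of 11 synthetase genes, all higher, the same count as for the ATF4 element. The STAT element TTCNNNGAA was found in 5.59% of tested genes, in 2 of 13 genes of the cytokine signalling and STAT5 target list, in 3 of 22 of the amino acid response and in 2 of 11 synthetase genes. A match is a run of letters, not a measured site, and its part in the change was not tested. Windows are shown for rising genes with a match, whatever the size of the rise. The match is the ATF4 element in the amino acid response and synthetase lists and the sterol element in sterol synthesis. Trib3 and Phgdh, with the largest folds of the amino acid response, are not among these genes. The windows are given 5′ to 3′ on the strand of the gene, with the motif, on either strand, in capitals. They lie at chr13:119690184-119690252 (plus strand, Hmgcs1), chr6:7693210-7693262 (minus, Asns), chr2:119351019-119351086 (plus, Chac1), chr7:126625543-126625610 (minus, Nupr1), chr8:111033700-111033767 (plus, Aars), chr6:55037941-55038000 (plus, Gars) and chr15:11399659-11399703 (minus, Tars).
Hmgcs1: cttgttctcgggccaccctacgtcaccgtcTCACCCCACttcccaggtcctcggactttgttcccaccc
Asns: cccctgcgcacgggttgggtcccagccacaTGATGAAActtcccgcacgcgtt
Chac1: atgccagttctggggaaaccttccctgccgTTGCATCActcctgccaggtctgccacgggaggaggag
Nupr1: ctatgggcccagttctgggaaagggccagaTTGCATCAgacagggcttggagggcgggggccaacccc
Aars: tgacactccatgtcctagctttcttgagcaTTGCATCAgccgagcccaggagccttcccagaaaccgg
Gars: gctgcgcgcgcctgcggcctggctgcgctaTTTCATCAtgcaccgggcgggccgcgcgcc
Tars: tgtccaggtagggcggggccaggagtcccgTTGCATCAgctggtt

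Of 27 tested genes of the Myc and ribosome biogenesis list 21 rose and 0 fell (median 0.70), and 22 rose without replicate 1. The number that rose was 12 with a block for the replicate number and 4 with a minimum fold of 1.5. Most members of the list serve ribosome assembly, and it also holds Myc and the polyamine synthesis genes Odc1 and Srm. Srm, which encodes spermidine synthase, read 2784, 3049.9 and 3146 in L-GMP-derived cells against 1141, 1139 and 1404 (2.45-fold, adjusted p = 1.48e-05). Nolc1, a nucleolar scaffold gene, was 2.17-fold higher, Bysl 2.28-fold, Utp20 2.22-fold and the rRNA methyltransferase gene Nop2 2.04-fold. The transcription factor gene Myc, itself on the list, read 1079.7, 996 and 1028 against 587, 572 and 657 (1.71-fold, adjusted p = 0.000437), without overlap, and averaged 1155 in normal GMP. Its part in the rise of the other members was not tested.

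Of 15 genes of nucleotide synthesis 9 rose and 1 fell (median 0.45). Cad, which encodes the enzyme of the first steps of pyrimidine synthesis, read 464, 583 and 557 against 234, 176 and 235 (2.50-fold), and Adsl of purine synthesis was 2.27-fold higher. Of 23 respiratory chain genes 11 rose and 1 fell (median 0.26), 13 and 0 without replicate 1, and the 1 fall also ended without L-GMP replicate 2 or 3. Over all tested genes 16.6% rose and 14.1% fell. With a block for the replicate number, 3 nucleotide synthesis genes and 2 respiratory chain genes rose. With a minimum fold of 1.5 the counts were 2 and 0. Cyc1, the cytochrome c1 gene, was 1.67-fold higher (3776 ± 254 against 2260.4 ± 232) and Ndufv1 of complex I 1.49-fold.

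Glycolysis and hypoxia genes rose in 14 of 21 and fell in 1 (median 0.68). Aldoc, an aldolase gene, read 643, 1262 and 1839 in L-GMP-derived cells against 239, 205 and 67.9 (7.66-fold, adjusted p = 0.000896). Egln3, an oxygen-sensing hydroxylase gene induced by hypoxia, read 1044, 1711 and 2125 against 335, 355 and 394 (4.33-fold). Bnip3, a mitophagy receptor gene, was 3.64-fold higher and Pfkl, the phosphofructokinase gene, 3.56-fold. Replicate 1 was the lowest cultured array in all 4 genes and above all of L-GMP in each.

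More folding chaperone genes rose than fell. Of 21 genes 10 rose and 2 fell (median 0.13); the falls numbered 0 to 2 with single arrays left out. The mitochondrial chaperonin genes Hspd1 (1.87-fold) and Hspe1 (2.21-fold), the mitochondrial Hsp70 gene Hspa9 (2.32-fold) and Hsph1 (3.49-fold) were higher. Hspa1b, an inducible cytosolic Hsp70 gene, was 2.95-fold lower (145 ± 41.8 against 494 ± 352), a call that did not hold once L-GMP-derived replicate 1 or 3 or L-GMP replicate 1 or 3 was left out (adjusted p = 0.0533 to 0.0724).

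**Figure D3:**
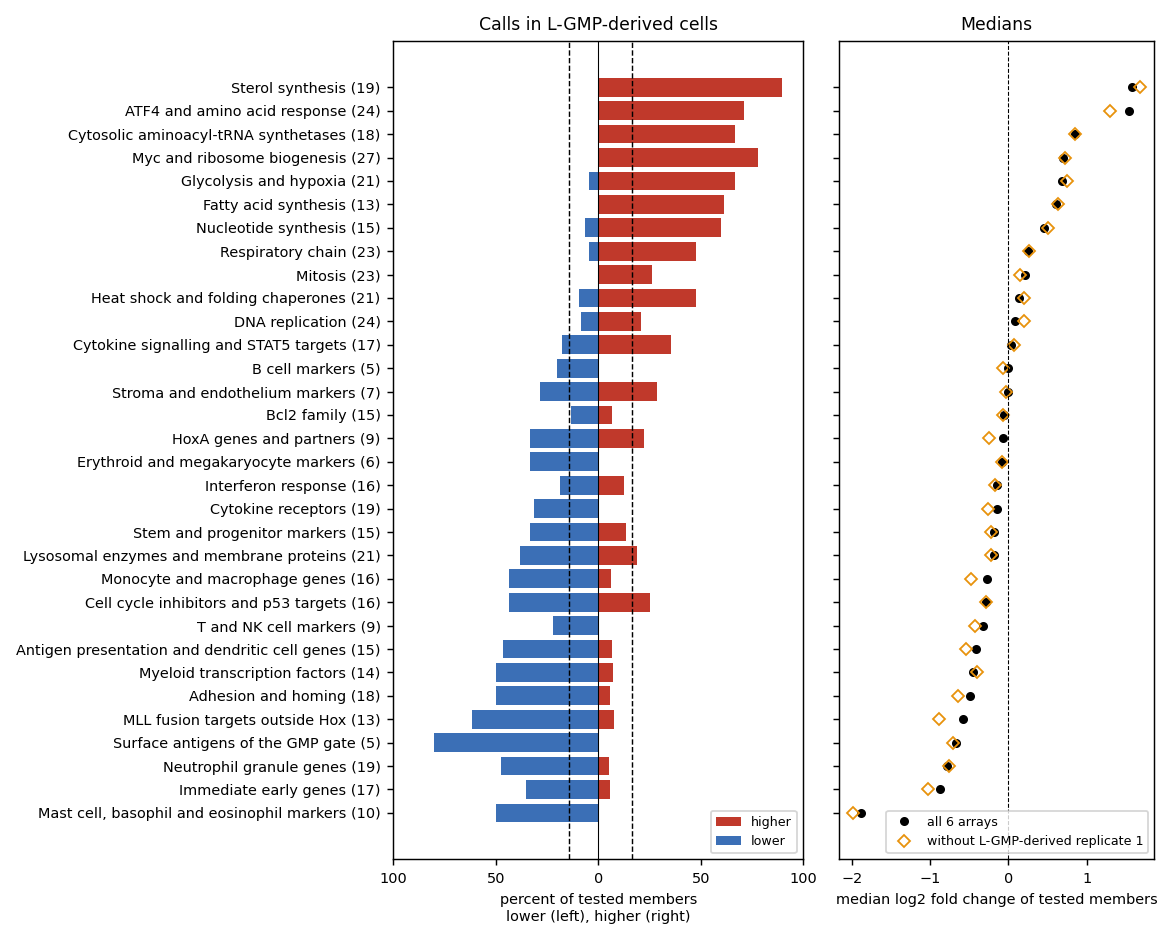
Left, the percent of each list's tested members (number in brackets) called higher (red, right) or lower (blue, left) in L-GMP-derived cells, with dashed lines at the shares over all tested genes (16.6% and 14.1%). Right, the median log2 fold change, which with all arrays (black) runs from -1.88 for mast cell, basophil and eosinophil markers to 1.58 for sterol synthesis, and without L-GMP-derived replicate 1 (orange diamonds) from -1.98 to 1.68 for the same lists.

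The share of cell cycle genes that passed the test was near that over all tested genes (30.7%). Among 24 genes of DNA replication 5 rose and 2 fell (median 0.09), and with single arrays left out the counts ran down to 3 higher (without L-GMP replicate 3) and 0 lower (without L-GMP-derived replicate 2 or 3, or L-GMP replicate 2). Mcm10, a gene of replication initiation, was 1.67-fold higher (1302 ± 56.8 against 783 ± 122), Pole 1.58-fold and Gins1 1.54-fold. Of 23 mitosis genes 6 rose and 0 fell (median 0.21). Their number was 1 without L-GMP-derived replicate 2, 2 without L-GMP-derived replicate 3 or L-GMP replicate 2 or 3, and 10 without L-GMP replicate 1, and 2 fell without L-GMP-derived replicate 1. With only the 6 arrays in the fit, 1 mitosis gene rose. Bub1, a spindle checkpoint kinase gene, read 786, 1079 and 1122 against 719, 515 and 544 (1.68-fold, adjusted p = 0.0073). The proliferation marker gene Mki67, named after its values were seen, read 2993 ± 237 against 2934 ± 247 (adjusted p = 0.854).

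Inhibitors of cyclin-dependent kinases went opposite ways. Of 16 inhibitor and p53 target genes 4 rose and 7 fell (median -0.29). Cdkn2c, which encodes p18, read 133, 203 and 177 in L-GMP-derived cells against 1408, 1019.8 and 746 (6.07-fold lower, log2 fold change -2.60 ± 0.24 SE, adjusted p = 2.87e-05). Cdkn1c, the p57 gene, read 49.2, 54.5 and 45.8 against 965, 357 and 192. Its fall was at least 6.47-fold, and at least 4.19-fold without L-GMP replicate 1. Cdkn1b, the p27 gene, was 2.38-fold lower. By contrast Cdkn1a, the p21 gene, read 607, 1086 and 1224 against 183, 182 and 171 (5.21-fold higher, adjusted p = 0.000564), and the p53 target Phlda3 was 2.86-fold higher. For none of these 5 genes, chosen among those called, did the groups overlap, and the same held for 41.1% of all tested genes.

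Several genes that cytokine receptors induce through STAT5 rose. Pim1, a survival kinase gene, read 3917, 3425 and 3632 in L-GMP-derived cells against 398, 432 and 292 (9.90-fold, log2 fold change 3.31 ± 0.18 SE, adjusted p = 9.77e-07). Cish, a feedback inhibitor of cytokine receptors, read 1838, 2225 and 2396 against 289.8, 254 and 254 (8.07-fold, adjusted p = 3.14e-07). Normal GMP averaged 1531 for Pim1 and 231 for Cish. Id1, which encodes an inhibitor of basic helix-loop-helix factors, was 3.04-fold higher. Of the whole list of 17 tested genes 6 rose and 3 fell, and its median (0.04) was close to that of all genes. Ccnd2, the cyclin D2 gene, read 169.9, 1104 and 1009 against 193, 132 and 121: only replicates 2 and 3 lay above L-GMP. Its fold was 3.94 (adjusted p = 0.0236), 7.25 without replicate 1, and it was not called once L-GMP-derived replicate 2 or 3 or L-GMP replicate 2 or 3 was left out (adjusted p = 0.0728 to 0.0927). Socs3, another feedback gene, read 145, 181 and 196 against 8.07, 5.18 and 3.81. It was at least 2.76-fold higher (adjusted p = 0.0405), a call that leaving out any array except L-GMP-derived replicate 1 ended (adjusted p = 0.0874 to 0.112), and it turned to a log2 fold change of -0.16 (adjusted p = 0.68) when probe sets with shared binding were left out.

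Of 19 cytokine receptor genes 0 rose and 6 fell (median -0.15), and 1 rose without L-GMP-derived replicate 1 or 3 or L-GMP replicate 1. With a block for the replicate number 4 fell. The share called in either direction was near that over all tested genes (30.7%, with 16.6% higher and 14.1% lower). Csf1r, the gene of the M-CSF receptor on monocytes, read 820.1, 383 and 402 in L-GMP-derived cells against 4176, 5124 and 4721 (9.29-fold lower, adjusted p = 8.30e-06). Il6ra, which encodes the binding chain for interleukin 6, was 2.22-fold lower and Ifngr2 1.46-fold. Il3ra, the binding chain of the interleukin 3 receptor, read 608, 243 and 235 against 285, 293 and 298: replicate 1 lay above and the other 2 below L-GMP (adjusted p = 0.771). Csf2rb, the shared signalling chain, was below the filter on dim probe sets, as was Flt3.

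**Figure D4:**
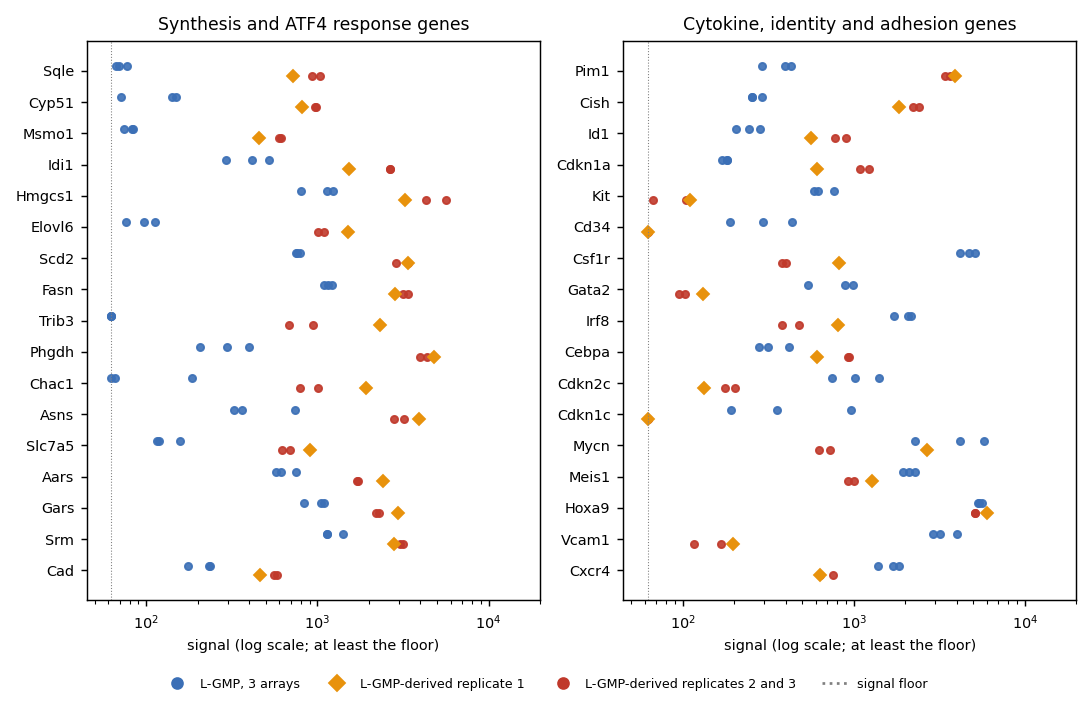
Signals are on a log scale, drawn at least at the floor of 62.4, with 1 point per array. Left, genes from the lists of lipid and nucleotide synthesis, amino acid response, tRNA synthetases, and Myc and ribosome biogenesis. Right, cytokine, cell cycle inhibitor, identity and adhesion genes. L-GMP-derived cells (red, with replicate 1 as an orange diamond drawn over other points) lie to the right of L-GMP (blue) in every row on the left, for example 722 to 1039 against 66.6 to 77.5 for Sqle, while for Hoxa9 on the right the groups overlap. The genes on the left were chosen among those called higher, which favours such a separation, and members that did not pass are not drawn there.

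Hoxa9 and 3 other HoxA genes did not pass the test, while several other fusion targets fell. Hoxa9, the homeodomain gene central to this leukemia, read 6003, 5108 and 5139 in L-GMP-derived cells against 5617, 5312 and 5369 (log2 fold change -0.01 ± 0.09 SE, adjusted p = 0.964). All L-GMP values lay within the range of the cultured arrays, and normal GMP averaged 1599. Hoxa10 read 313 ± 42.7 against 236 ± 35.4 (adjusted p = 0.0565). Hoxa11 read 317, 581 and 592 where L-GMP read 5.34, -5.59 and -26.8 (at least 7.65-fold, adjusted p = 7.58e-06). Meis1, whose product binds DNA together with Hox proteins, read 1271, 1009 and 928 against 2284, 2108 and 1933 (1.98-fold lower, adjusted p = 0.000379), without overlap. Pbx3, another partner, was 1.38-fold lower (adjusted p = 0.0251), a call that ended without L-GMP-derived replicate 1 or 3 or L-GMP replicate 2 or 3 (adjusted p = 0.0544 to 0.091). On this list of 9 genes 2 rose and 3 fell, running down to 1 and 1 with single arrays left out (L-GMP-derived replicate 3 or L-GMP replicate 2). Over all tested genes 16.6% rose and 14.1% fell. Hoxa3, 1.33-fold higher (adjusted p = 0.0238), lost its call without L-GMP-derived replicate 2 or 3 or L-GMP replicate 1 or 2. Pbx2, 1.51-fold lower (adjusted p = 0.0462), lost its call without any array except L-GMP-derived replicate 2.

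Outside the Hox cluster 8 of 13 tested MLL fusion targets fell and 1 rose (median -0.58, or -0.89 without replicate 1). Cdkn2c, above, fell most among them. Cpeb2, which encodes a regulator of mRNA translation, read 78.7, 92.4 and 77 against 375, 324 and 478 (4.70-fold lower, adjusted p = 2.20e-05), and Id2 was at least 4.48-fold lower. Mycn read 2681, 630.2 and 726 against 5772, 4182 and 2286, so replicate 1 lay inside the range of L-GMP. Its fold was 3.56 lower (adjusted p = 0.0166) and 5.63 without replicate 1. It was no longer called when L-GMP-derived replicate 2 or 3 or L-GMP replicate 1 or 2 was left out (adjusted p = 0.0564 to 0.0671), and normal GMP averaged 13.2. Myb was 1.21-fold lower (6093 ± 165 against 7369 ± 295), and Six4 was the 1 target that rose, at least 2.85-fold. Kmt2a read 159 ± 14.5 against 188 ± 10.9 (adjusted p = 0.149). Hpgd, which encodes a prostaglandin-degrading dehydrogenase, read 6239, 6528 and 6435 against 4483, 4553 and 4516 (1.42-fold higher, adjusted p = 0.00126), and averaged 20.7 in normal GMP.

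Antigens that define the GMP gate fell in 4 of 5 tested genes (median -0.67). Any sort of the marrow cells on these antigens would itself set part of their level. Kit, the receptor of stem cell factor, read 110.2, 105 and 67 in L-GMP-derived cells (7.11-fold lower, log2 fold change -2.83 ± 0.19 SE, adjusted p = 4.20e-06). Cd34, a sialomucin of progenitors, read 55.6, 35 and 18.7 (at least 4.63-fold lower, adjusted p = 0.000104). Each cultured array lay below every L-GMP array in both genes, and normal GMP averaged 816 for Kit and 568 for Cd34. The Fc receptor genes Fcgr3 and Fcgr2b were 1.59-fold and 1.504-fold lower. Stem and progenitor markers had 2 higher and 5 lower of 15 (median -0.19), where 16.6% of all tested genes were higher and 14.1% lower. Thy1, a surface glycoprotein gene, read 122, 425 and 531 against 23.5, 40.9 and 31.3 (at least 4.83-fold higher, and at least 7.61-fold without replicate 1).

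Of 14 tested myeloid transcription factor genes 1 rose and 7 fell (median -0.45). Gata2, a factor of stem cells and mast cell precursors, read 131, 95 and 104 in L-GMP-derived cells against 539, 889.8 and 996 (7.17-fold lower, adjusted p = 9.14e-06). Irf8, which directs monocyte and dendritic cell fate, read 808, 476 and 382 against 1714, 2162 and 2079.7 (3.74-fold lower). Klf4, a monocyte factor, was at least 2.95-fold lower, and Spi1, which encodes PU.1, 1.62-fold. Cebpa, the factor needed to form GMP, was the 1 that rose, at 613, 923 and 938 against 419, 280.3 and 317 (2.43-fold, adjusted p = 0.00119). It averaged 1169 in normal GMP. Without L-GMP replicate 1 a second member rose.

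Some markers of eosinophils and mast cells fell, and others did not pass the test. In these bulk samples fewer cells of a type and less RNA per cell cannot be told apart. Of 10 tested genes 0 rose and 5 fell (median -1.88), and 5 fell without replicate 1. The median rests on which members count: it was -0.13 without probe sets of shared binding (4 of 9 lower) and -0.03 with no filter on dim probe sets (5 of 17 lower). Prg2, the eosinophil major basic protein gene, read 30.6, 17.4 and 18.1 in L-GMP-derived cells against 2600.1, 2984 and 2425 (at least 42.6-fold lower, adjusted p = 7.23e-06). Prg3, its homologue, was at least 15.8-fold lower and Siglecf, an eosinophil surface lectin gene, 14.1-fold. Cpa3, the mast cell carboxypeptidase gene, read 1.1, 6.7 and -0.454 against 245, 854 and 2206. It was at least 12.4-fold lower with all arrays, at least 22.0-fold without L-GMP replicate 1 and at least 7.32-fold without L-GMP replicate 3. Hdc, which encodes the histamine-making enzyme, was at least 17.8-fold lower. The tested members that did not pass, named after the results were seen, were Mcpt8, Mcpt4, Tpsab1, Tpsb2 and Il5ra. Summed over 17 listed genes, the signal of this class ran from 1016 to 1374 in the culture and from 7441 to 10131 in the marrow. Epx, Ccr3, Fcer1a and Mcpt1 were below the floor on all 6 arrays.

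Neutrophil granule genes were split. Of 19 tested genes 1 rose and 9 fell (median -0.78), and 5 of 23 fell with no filter on dim probe sets. Camp, which encodes the cathelicidin of specific granules, read -3.29, 248 and 185 in L-GMP-derived cells against 8518, 3432 and 5386 (at least 38.0-fold lower, and 25.2-fold without replicate 1). Chil3, a chitinase-like gene of neutrophils and macrophages, read 15.3, 352 and 307 against 7887, 3302 and 5431 (at least 27.6-fold, and 15.9-fold without replicate 1). For both, the groups were far apart although replicate 1 lay below its group. S100a8 and S100a9, which encode the subunits of calprotectin, were 5.91-fold and 6.69-fold lower with all arrays and 2.65-fold and 2.66-fold without replicate 1. The folds rose to 9.04 for S100a8 without replicate 3, and to 10.7 and 10.5 for S100a9 without replicate 2 or 3. Both calls ended when any single L-GMP array was left out (adjusted p = 0.057 to 0.137). Mpo, the myeloperoxidase gene of primary granules, read 3581, 425 and 319 against 6630.5, 4647 and 6806. It was 7.55-fold lower (adjusted p = 0.0093), 16.1-fold without replicate 1 and 4.81-fold without replicate 3. The genes of 3 other primary granule proteases, named after their values were seen, did not follow Mpo: Elane read 6162 ± 467 against 6734 ± 1204 (adjusted p = 0.486), Prtn3 7475 ± 205 against 7898 ± 546 (adjusted p = 0.29), and Ctsg was 1.47-fold higher (adjusted p = 0.000489). The sum over 23 listed genes was 35669 to 39903 in the culture and 56079 to 90628 in the marrow, with Cxcr2 and Mmp9 below the floor on all 6 arrays.

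Monocyte and macrophage genes had 1 higher and 7 lower of 16 (median -0.27), and 2 higher and 8 lower without replicate 1 (median -0.48). Ms4a6c, a four-span membrane protein gene of monocytes, read 324, 119 and 109.8 in L-GMP-derived cells against 2501, 3622 and 3920.1 (20.3-fold lower). Its relative Ms4a6b was at least 25.04-fold lower, and at least 40.01-fold without replicate 1. F13a1, the coagulation factor XIII gene of monocytes, was 6.77-fold lower and Adgre1, which encodes the F4/80 antigen, 3.53-fold. Tlr4, the endotoxin receptor gene, was the member that rose with all arrays (245, 398 and 344 against 126, 34.8 and 29.7, at least 4.09-fold). Sums over 24 listed genes were 7831 to 9567 in the culture and 19330 to 20997 in the marrow. Cd163, Fcgr1 and Mrc1 were below the floor on all 6 arrays.

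Genes of antigen presentation and dendritic cells had 1 higher and 7 lower of 15 (median -0.42). The class I genes B2m (1.87-fold lower, 1620.1 ± 185 against 3058 ± 629) and H2-D1 (2.001-fold), the loading factor Tapbp (2.13-fold) and the immunoproteasome subunit Psmb9 (1.87-fold) fell. The class II gene H2-Ab1 rose 1.98-fold, reading 663, 845 and 914 against 446, 379 and 391.8. Among lysosomal genes 4 of 21 rose and 8 fell (median -0.19), where 16.6% of all tested genes rose and 14.1% fell. Ctsh, the cathepsin H gene, read 142, 143 and 145 against 2022, 2209.8 and 2207 (14.97-fold lower, adjusted p = 1.67e-08). Ctsb was 1.997-fold lower and Lipa, the lysosomal lipase gene, 1.90-fold, while Ctsl (2.36-fold) and Gla (2.16-fold) were higher.

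Markers of other lineages were counted and summed as well. The counts below stand beside 16.6% higher and 14.1% lower over all tested genes. Of 6 erythroid and megakaryocyte genes 2 fell (1 without L-GMP replicate 1 or 2), and their sum was 1685 to 1793 in the culture against 2046 to 2226 in the marrow. Of 9 T and NK cell genes 2 fell with all arrays, 4 without L-GMP-derived replicate 1 and 1 without L-GMP-derived replicate 3, while 1 rose without L-GMP-derived replicate 2, with sums of 2389 to 2775 against 4012 to 4370. Nkg7, a cytotoxic granule gene, was 6.11-fold lower. B cell genes had 1 of 5 lower, Cd79b (4.70-fold), and 2 without replicate 1, with sums of 3467 to 7204 against 6103 to 7092. The highest cultured sum is that of replicate 1, where Ighm, the heavy chain gene of IgM, read 3743 against 605 and 881. For stroma and endothelium 2 of 7 genes rose (1 without L-GMP-derived replicate 2 or 3 or L-GMP replicate 3) and 2 fell, and the sums were 1863 to 2010 against 5581 to 6282. Vcam1, which encodes an adhesion molecule of stroma and macrophages, read 196, 169 and 117 against 4026, 3175 and 2894 (21.2-fold lower, adjusted p = 2.69e-07). This gene alone made up the larger part of the stroma and endothelium sum on each L-GMP array. Pdgfrb, a growth factor receptor gene of stromal cells, was 3.97-fold lower and the smooth muscle actin gene Acta2 4.47-fold higher, while the stromal and endothelial genes Lum, Emcn and Pecam1 were below the floor on all 6 arrays. The part of other cell types in any of these results was not tested.

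Adhesion and homing genes fell in 9 of 18 and rose in 1 (median -0.49), and fell in 12 without replicate 1 (median -0.65). Cxcr4, the receptor that holds progenitors in the marrow, read 636, 755 and 637 in L-GMP-derived cells against 1699, 1839 and 1394 (2.42-fold lower, log2 fold change -1.28 ± 0.13 SE, adjusted p = 6.48e-05). Vcl and Tln1, which encode vinculin and talin of focal adhesions, were 2.69-fold and 2.12-fold lower. The integrin gene Itgb7 was at least 2.42-fold lower and Ccr1, which encodes a chemokine receptor, at least 2.20-fold. All 5 genes, chosen by size of change among those called, had separate ranges, as had 41.1% of all tested genes.

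Immediate early genes, which respond within minutes to stimulation, had 1 higher (Myc, above) and 6 lower of 17 (median -0.88). With single arrays left out 4 (without L-GMP-derived replicate 2 or 3 or L-GMP replicate 1 or 3) to 9 fell (without L-GMP-derived replicate 1). The count was 12 with only the 6 arrays in the fit, 11 with array weights, 2 with no filter on dim probe sets and 3 where the floor was raised to the 40th percentile. Fos read 2.4, 2.27 and -10.1 in L-GMP-derived cells against 3037, 869 and 3985. The fall was at least 35.1-fold (adjusted p = 0.000181), and at least 55.7-fold without L-GMP replicate 2, the lowest of its group. Dusp1, a MAP kinase phosphatase gene, was at least 8.50-fold lower and Klf2 3.23-fold. Jun read 49, 24.8 and 11.1 against 738, 242 and 729.8 (at least 8.12-fold lower), a call lost when L-GMP-derived replicate 2 or 3 or L-GMP replicate 1 or 3 was left out (adjusted p = 0.0582 to 0.0762).

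Interferon response genes showed no common direction, with 2 higher (1 without L-GMP-derived replicate 2) and 3 lower of 16 (median -0.14). Over all tested genes 16.6% were higher and 14.1% lower. Ifitm3 read 955, 844 and 774 in L-GMP-derived cells against 182, 101 and 125 (6.46-fold higher, adjusted p = 7.05e-06). Ifi47, a GTPase gene, was 2.97-fold lower and the transcription factor gene Irf1 1.93-fold. Of 15 Bcl2 family genes 1 rose and 2 fell (median -0.05), shares that did not exceed those over all tested genes. The counts ran from 0 to 1 and from 1 to 2 with single arrays left out. Bcl2l11, which encodes the death activator BIM, read 625, 754 and 699 against 1327, 1280.1 and 908 (1.67-fold lower, adjusted p = 0.00562), without overlap.

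L-GMP-derived replicate 1 differed from the others in particular genes. Of 8753 tested genes in which replicates 2 and 3 lay within 1.5-fold of each other, 245 had replicate 1 at least 2-fold away, 111 higher and 134 lower. It lay between L-GMP and replicates 2 and 3 at 80 of them, beyond replicates 2 and 3 at 55, and on the opposite side of L-GMP at 110. These genes are described with no test, since they were chosen by this difference. Mpo was highest on replicate 1 in relation to the others, at 3581 against 425 and 319. It was followed by Mndal, an interferon-inducible gene (584 against 24.4 and 33), and Cd180, a B cell and myeloid receptor gene (336 against 65.4 and 62.7). Pax4 read 323 against -75 and -109 and Tctex1d1 325 against 68.2 and 50.9, and in all of these 5 genes L-GMP was higher still. Nupr1 was highest on replicate 1 while L-GMP lay below the floor, and Gm6958 (754 against 198 and 172) and Gstt2 (530.1 against 126 and 117) were above all L-GMP arrays on it as well.

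Lowest on replicate 1 was Ak4, followed by S100a9 (115 against 1854 and 1801), Ngp, a neutrophil granule gene (155 against 2119 and 2178), and S100a8 (334 against 3517 and 3874). The L-GMP arrays were higher than replicates 2 and 3 for S100a8 and S100a9, and 2171 to 6991 for Ngp. Scin, which encodes an actin-severing protein, read 66.8 against 605 and 489, and Slc40a1, the iron exporter gene, 161 against 1368 and 1133. Replicate 1 lay below all L-GMP arrays in both. F2r, the thrombin receptor gene, read 144 against 881 and 749, with L-GMP at 35.2, 28.3 and 57.2. Mogat2 read 122 against 921 and 989, and the L-GMP arrays ran from 830.0 to 2258.

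**Figure D5:**
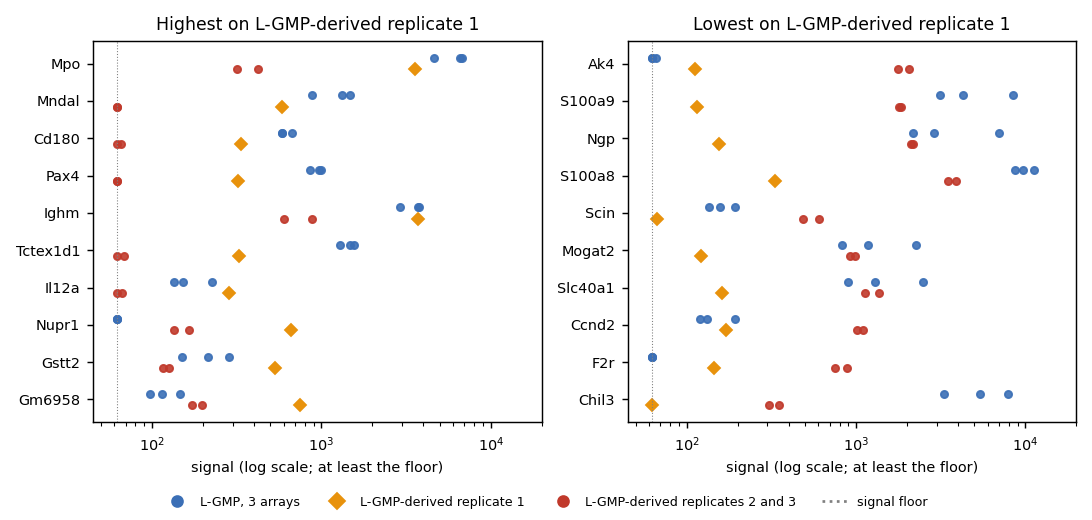
Signals (log scale, drawn at least at the floor of 62.4) of the 10 genes highest, left, and the 10 lowest, right, on L-GMP-derived replicate 1 (orange diamond) against replicates 2 and 3 (red), with L-GMP in blue, 1 point per array. Mpo at 3581 and Ighm at 3743 lie near L-GMP on replicate 1, whereas S100a8 at 334 and Ngp at 155 lie below every other array.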

How the data were processed

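RNA of 9 mouse samples, 3 in each of 3 groups taken from titles and sources, had been hybridized to arrays, 1 per sample. The authors deposited 1 table of processed intensities, linear signals with 1 value for each probe set on each array, made with MAS5 (version 5) per the submitters' processing notes; how background, summary and scaling were done is not stated in the sources used here, and 1917 values (0.939%) are negative. Trimmed means of the arrays lay within 4.06% of their mean, so that scaling was kept.

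Signals were floored at 62.4 (25th percentile of all values) and log2 was taken, which understates folds of dim genes. Tested were probe sets that exceeded 111 (40th percentile) on 3 or more arrays, without 64 controls. Platform annotation gave 20393 probe sets 1 symbol, 691 several and 1606 none, and 20364 matched RefSeq (GRCm38.p6). A gene stands for its brightest probe set. limma 3.58.1 in R 4.3.3 (lmFit, eBayes with an intensity trend, two-sided, 6 residual degrees of freedom) was fitted on all 9 arrays, with Benjamini-Hochberg adjustment over probe sets and a threshold of 0.05. It was tested on simulated data. Members, gene lists and tests were chosen with earlier results of these data known. Named were the 15 genes that rose and the 15 that fell most without overlap, up to 5 called genes per list, a fixed set of genes of this leukemia, and the 10 highest and 10 lowest on L-GMP-derived replicate 1. Fewer are given. Promoters were read with Python 3.11.15 and pandas 2.3.3. Replicate numbers were not used as pairs, since the labels give no pairing. Same-numbered arrays of the groups did not deviate together (correlations -0.31, -0.13 and -0.27). With 3 arrays a group the deviations depend on each other, so this cannot show that a number carries no shared source. Alternatives were other floors, filters and scalings, no intensity trend, 6 arrays in the fit, array weights, a minimum fold, the mean over probe sets, no shared-binding probe sets, a block for the replicate number, and each array left out in turn.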

Additional observations from a re-analysis of the deposited data

How the results depend on the processing

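The number of probe sets past the threshold was 4354 with all 9 arrays in the fit. It stayed within 1.5 times that under every alternative run except a minimum fold of 1.5, which left 714 probe sets and 472 of the 2754 genes, and a replicate block over the 6 arrays, which left 1637 probe sets and 1046 genes. The pairing behind that block is only a shared number. The labels do not say if same-numbered arrays shared a source, and the correlations of their deviations cannot settle it. With single arrays left out, 3341 to 5478 probe sets and 2127 to 3425 genes passed. The highest counts were reached without L-GMP-derived replicate 1. Weights per array gave 6482 probe sets and 4050 genes, and only the 6 arrays in the fit 3311 and 2119. Scaling to one median or by quantiles moved the median of all genes by less than 0.02 (log2).

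The sign turned for 4 named genes, of which Socs3 alone was called with all arrays. With single arrays left out, log2 fold changes ran from -0.79 to 0.30 for Gstt2 (above 0 without L-GMP-derived replicate 2 or 3 or L-GMP replicate 1), from -0.084 to 0.032 for Hoxa9 (above 0 without the same arrays) and from -0.29 to 0.40 for Il3ra (below 0 without L-GMP-derived replicate 1). Hoxa9 turned to 0.14 with the mean over probe sets and to 0.0046 with quantile normalization, Il3ra to -0.24 with array weights, and Socs3 to -0.16 without probe sets of shared binding. The cause was not tested. Signals near the floor limit what can be said of dim genes: their folds are bounds and their ranks depend on the floor.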
